A study of Mus musculus with 6 samples.

Results

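Hemoglobin transcripts were followed in single cells of the regenerating tibialis anterior muscle (TAM) of control and hypothyroid mice. The members are the 4 hemoglobin genes that the expression tables list, out of 12436 genes: the α chain genes *Hba-a1* (chr11:32233511-32234466, mm39) and *Hba-a2* (chr11:32246489-32247299), and the β chain genes *Hbb-bs* (chr7:103475741-103477304) and *Hbb-bt* (chr7:103461731-103463204). They were chosen by gene symbol, with their high levels in these data already known, so their levels are given as a description. Each of the 4 genes passed into every table, and no filter on low values was applied to them.

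Male mice of a B6;129 strain, aged 3 to 5 months, carried the allele Gt(ROSA)26Sor<tm1(Fucci2aR)Jkn, a conditional FUCCI cell cycle reporter, and, per the study's methods, no Cre. Hypothyroid mice were fed a diet low in iodine with 0.15% (w/w) propylthiouracil (PTU), which blocks thyroid hormone synthesis, and control mice the matched diet. The right TAM was injected with cardiotoxin at 50 µg/ml, a toxin that destroys fibers, and was taken at 0 (uninjured), 5, or 14 days post injury (dpi). Muscles of 3 mice were pooled into 1 library for each of the 6 combinations, and the study's methods state that red blood cells were lysed and dead cells removed before droplet capture. With 1 library per condition no difference between conditions could be tested, and every interval below covers counting error only.

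Adult hemoglobin is a tetramer of α and β chains, each holding a heme, the iron-containing group that binds oxygen. Its genes are read in erythroid precursors in marrow and spleen. The youngest circulating red cells (reticulocytes) still hold hemoglobin RNA, while mature mouse red cells have no nucleus and lose it. Lymphocytes and fibro-adipogenic progenitors (FAPs, connective tissue cells of muscle) are not known as sources of it, while α globin has been described in the endothelium of small arteries. Blood in a dissociated tissue can bring hemoglobin RNA into droplets as whole red cells, as red cells captured together with another cell, or as RNA free in the suspension.

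The α pair and the β pair differ in how much sequence the copies share past the coding part. In the GENCODE transcripts (GRCm39) each gene has 3 exons. *Hba-a1* and *Hba-a2* differ at 1 of 429 coding bases, and the whole 90 bases that follow the coding part of *Hba-a2* stand in *Hba-a1* as well. Counts of *Hba-a1* and *Hba-a2* are therefore uncertain, and the pair is best read as a sum. *Hbb-bs* and *Hbb-bt* also differ at 1 coding base, of 444, and their transcripts share a run of 430 bases. In the 133 bases past the coding part, however, the longest run they share is 8. Where on the transcripts the reads fall was not measured, so how well they tell the β copies apart was not tested. The promoters show the same contrast. The 120 bases before the start are shown for an α gene and both β genes (RefSeq, GRCm38.p6), since the pairs differ in them. Capitals mark the TATA box (searched as TATAA), the CCAAT box (CCAAT, or ATTGG where it lies on the other strand), and the CACCC box (CACCC), the last bound by erythroid Krüppel-like factors. All were searched on both strands.
Hba-a1 (chr11:32283552-32283671, plus strand): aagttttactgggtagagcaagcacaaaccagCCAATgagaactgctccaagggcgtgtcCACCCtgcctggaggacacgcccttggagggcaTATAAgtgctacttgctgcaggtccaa
Hbb-bs (chr7:103827929-103828048, minus strand): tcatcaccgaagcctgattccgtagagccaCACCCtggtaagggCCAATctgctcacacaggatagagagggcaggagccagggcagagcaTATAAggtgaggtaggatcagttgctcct
Hbb-bt (chr7:103813924-103814043, minus strand): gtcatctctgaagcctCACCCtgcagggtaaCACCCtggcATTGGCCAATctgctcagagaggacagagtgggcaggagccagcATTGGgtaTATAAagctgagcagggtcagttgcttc
The α promoters were identical over the 247 bases compared (at a shift of 3 bases), and the β promoters matched at 127 of 249. All 4 promoters held the TATA, CCAAT, and CACCC boxes in these 120 bases. Among 32851 promoters, 11.8% held the TATA box, 21.3% the CCAAT box, and 31.7% the CACCC box in the same window. The GATA motif (GATAA), also searched, was in none of the 4 windows and in 10.5% of all.

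Cells numbered 1152, 2428, and 3294 in the control libraries at 0, 5, and 14 dpi, and 528, 2155, and 1650 in the hypothyroid libraries. Their median depth was between 3634 and 8055 unique molecular identifiers (UMIs, each standing for a captured RNA molecule), and the hypothyroid libraries at 5 and 14 dpi were the deepest. Libraries shared 12 barcodes in all, none of them of a cell with 10% or more hemoglobin. The files also hold 9062 later columns that were not used, some of which repeat cells of another condition. The study reports more cells for each condition than its first run of columns holds, with the conditions in the same order of size. Cell numbers do not identify cells, so whether each first run belongs to its file's label could not be settled.

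The 4 genes together held 92493 UMIs, 0.120% of all UMIs, and were spread very unevenly over cells. In control muscle, hemoglobin UMIs numbered 1454 at 0 dpi, 3948 at 5 dpi, and 76601 at 14 dpi. In hypothyroid muscle they numbered 7064 at 0 dpi, 29 at 5 dpi, and 3397 at 14 dpi. The control library at 14 dpi thus stood highest and the hypothyroid library at 5 dpi lowest. *Hbb-bs*, a β gene, led in all 6 libraries, with 1065, 1867, and 37116 UMIs in the control libraries at 0, 5, and 14 dpi, and 4842, 21, and 1720 UMIs in the hypothyroid ones. Of the α genes, *Hba-a1* held 119, 843, and 18356 UMIs with the control diet, 777, 3, and 880 with PTU. *Hba-a2* held 109, 832, and 15120 with the control diet, 512, 1, and 653 with PTU. The copies of a pair rose and fell with the library together. *Hbb-bt*, the other β gene, held 161, 406, and 6009 with the control diet, 933, 4, and 144 with PTU.

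Most of this RNA sat in few cells. Cells in which hemoglobin made up at least 10% of UMIs (Hb-high cells) numbered 27 of 11207 and held 91.4% of all hemoglobin UMIs. Per library, Hb-high cells were 1 of 1152 (0.0868%, exact binomial 95% interval 0.00220% to 0.483%), 2 of 2428 (0.0824%, 0.00998% to 0.297%), and 19 of 3294 (0.577%, 0.348% to 0.899%) in control muscle at 0, 5, and 14 dpi. In hypothyroid muscle they were 3 of 528 (0.568%, 0.117% to 1.65%), 0 of 2155 (which allows a share of up to 0.139% by the limit of 3 counts, and 0.171% by the exact interval), and 2 of 1650 (0.121%, 0.0147% to 0.437%). The interval of the control library at 14 dpi lay above those of the control library at 5 dpi and the hypothyroid library at 5 dpi and overlapped the other 3. Because red blood cells were lysed during preparation, the share of Hb-high cells and the efficiency of lysis cannot be told apart. A further 15 cells held 24 to 824 hemoglobin UMIs without reaching 10%, and below them no cell held more than 15. Below the threshold, 4 cells had between 5% and 10%, the highest of them 9.01%, and the lowest of the Hb-high cells had 17.1%.

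**Figure D1:**
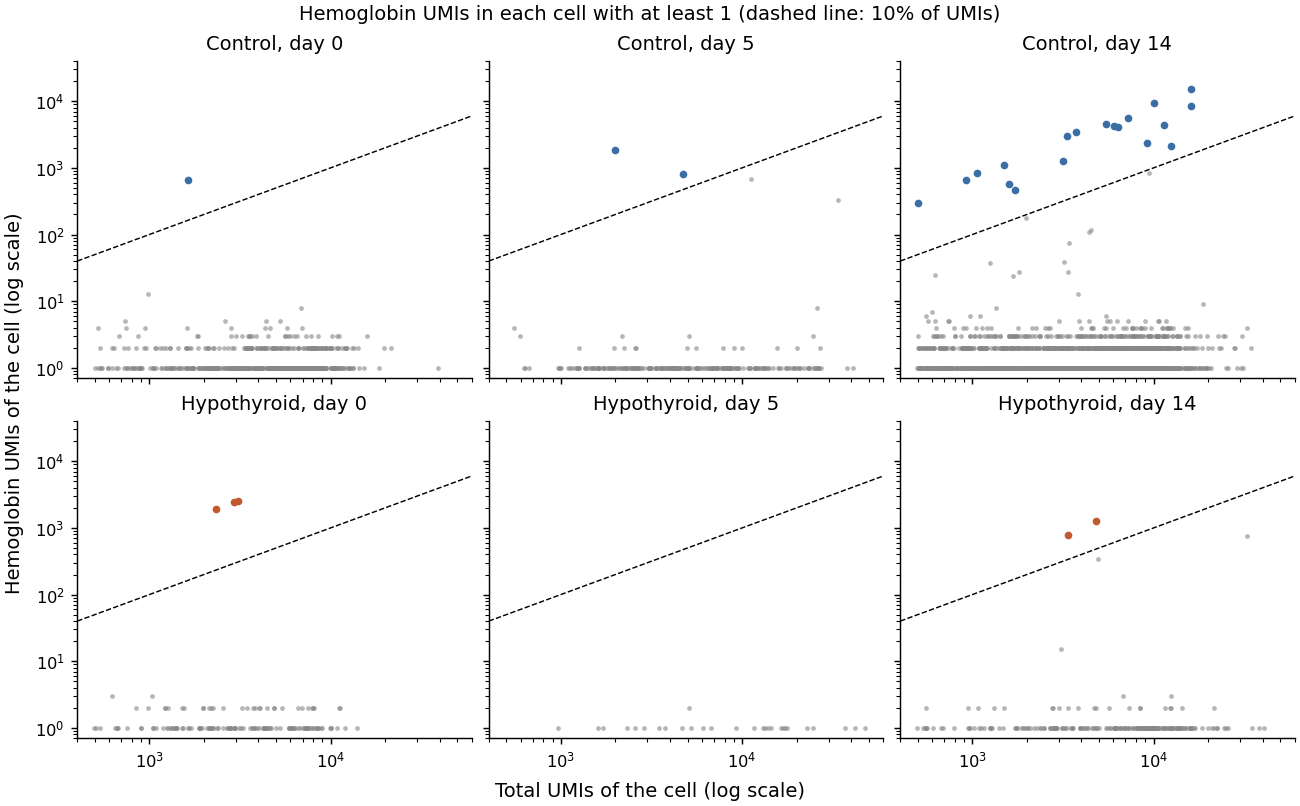
Each point is a cell with at least 1 hemoglobin UMI, plotted by its total UMIs (x axis, log scale) and its hemoglobin UMIs (y axis, log scale), 1 panel per library. Colored points above the dashed line are the 27 Hb-high cells, 19 of them in control muscle at 14 dpi, and grey points form flat bands at 1, 2, and 3 UMIs across all depths.

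The Hb-high cells were of unlike kinds. In 17 of the 27, hemoglobin was at least 50% of UMIs, and in the highest, in control muscle at 14 dpi, it was 15172 of 16056 UMIs (94.5%). When cells were clustered without any globin gene, 12 Hb-high cells fell into the cluster named myocyte-like. These were sparse outside hemoglobin, with 162 to 884 other UMIs (median 356.5) and 115 to 295 genes. The other 15 fell among 5 endothelial-like, 4 FAP-like, 2 mural-like, 2 tenocyte-like, 1 T and NK-like, and 1 unnamed cell, and held 879 to 10314 other UMIs (median 2318) and 419 to 3012 genes. Several of these carried clear transcripts of their class: a FAP-like cell of control muscle at 14 dpi with 2126 hemoglobin UMIs held 446 UMIs of the FAP markers, and an endothelial-like cell with 2330 held 142 UMIs of the endothelial markers. Others carried few: the T and NK-like cell held 6 UMIs of its class markers, and the 2 tenocyte-like cells 10 and 6. An endothelial-like cell of hypothyroid muscle at 14 dpi held 11 UMIs of endothelial markers and 63 of FAP markers. Captures of more than 1 cell were not removed. In the 12 myocyte-like Hb-high cells, 9 fiber genes gave 7 to 52 UMIs per cell. Cells outside the myogenic classes held a median of 33 such UMIs in control muscle at 14 dpi, 30 in hypothyroid muscle at 0 dpi, and 3 in control muscle at 5 dpi, the libraries these cells came from. The part of this fiber RNA in their class name was not tested.

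Hb-high cells were also rich in other erythroid genes, which the rule for choosing them did not use. *Alas2*, the erythroid enzyme that starts heme synthesis, gave 185 UMIs in 21 of the 27 Hb-high cells and 26 UMIs in the other 11180. That is 3175 CPM (UMIs scaled to a total of 1000000) against 0.340, with UMIs of the hemoglobin genes left out of the totals. The same scale is used for the erythroid genes that follow. In cells with under 20 hemoglobin UMIs, 15 cells held *Alas2*, each with 1 UMI. *Bpgm*, which makes the 2,3-bisphosphoglycerate that lowers oxygen affinity, was at 1287 CPM in Hb-high cells against 15.6 in the others, and *Fech*, which puts iron into heme, at 635 against 24.8. *Slc25a37*, the mitochondrial iron carrier, was at 789 against 42.6, and *Epb41*, of the red cell membrane skeleton, at 669 against 28.3. *Bnip3l*, needed to clear mitochondria from reticulocytes, was at 892 against 87.6. Each of these genes was found in 13 to 21 Hb-high cells, and the exact 95% intervals of all 6 ratios lay above 7.

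Over the list of 40 erythroid genes other than globins, 23 were held by the files, and 16 of them were at least 2-fold higher in Hb-high cells, 3 at least 2-fold lower, with a median ratio of 8.56. Of those 16, *Ank1* and *Tal1* rest on 2 UMIs each and *Car2* on 5. The 48 UMIs of *Aqp1* lay in 4 cells, with 0 in the cells of at least 50% hemoglobin. Over all 12432 other genes, 16.5% were at least 2-fold higher and 44.7% at least 2-fold lower. The control library at 14 dpi held 19 of the 27 cells. Without it, among 8 Hb-high cells, 16 of 23 listed genes were at least 2-fold higher (all genes: 16.1%) and 5 at least 2-fold lower, all 5 with 0 UMIs in those cells. Of the 16, *Tal1* and *Tfrc* rest on 1 UMI each and *Car2* on 2. In the same 8 cells, *Alas2* gave 65 UMIs, found in 7 cells. The 15 genes highest in Hb-high cells by the lower end of the interval included 10 of that list. The other 5 were *Cd24a*, *Ccndbp1*, *Marchf2*, *Isg20*, and *Rgs5*, the last a pericyte marker with 262 UMIs in 9 cells. Of 8 heme synthesis genes, 4 were at least 2-fold higher, but only *Alas2* and *Fech* had intervals above 1, and *Alad* and *Ppox* rest on 1 UMI each. *Alas1*, which starts heme synthesis in other tissues, also gave 1 UMI. Of 19 genes of heme breakdown and iron handling, 4 were at least 2-fold higher and 7 at least 2-fold lower. Of the 9 fiber genes, 6 were at least 2-fold higher, and of 5 fibro-adipogenic genes 0. Platelet genes (*Pf4*, *Ppbp*, *Itga2b*) and neutrophil genes (*S100a8*, *S100a9*, *Csf3r*) gave 0 UMIs in Hb-high cells. These cells held only 58275 UMIs outside hemoglobin, and a count of 0 allows up to 3, so these zeros do not show absence. In 6 Hb-high cells no *Alas2* was found, and 5 of these had hemoglobin under 50%. No cluster earned the name erythroid-like, since the 27 cells spread over other clusters.

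**Figure D2:**
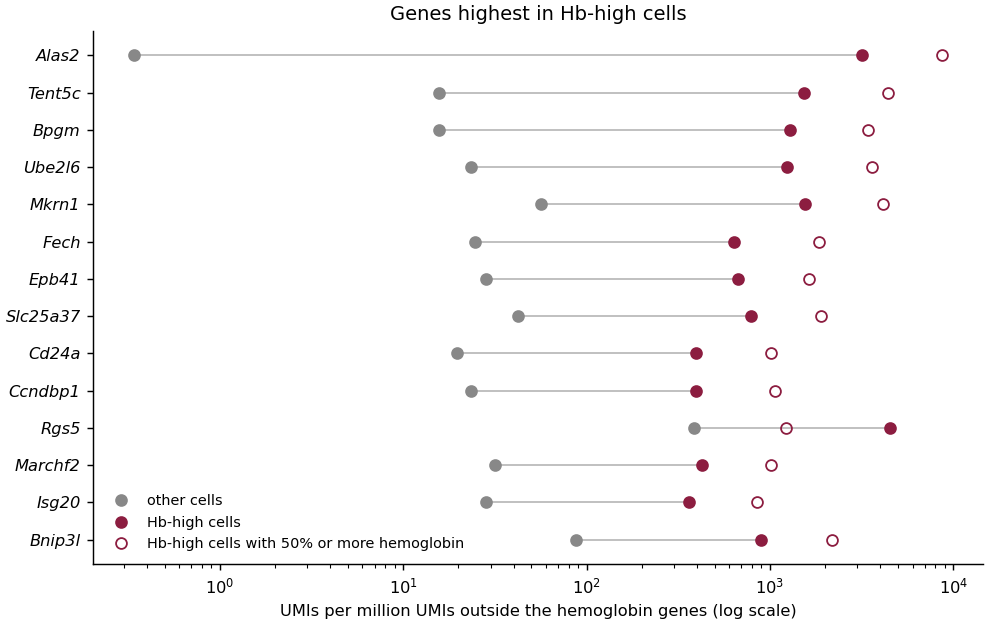
CPM, with hemoglobin UMIs left out of the totals (x axis, log scale), for 14 of the 15 genes highest in Hb-high cells. Filled red points are all 27 Hb-high cells, open points the 17 with at least 50% hemoglobin, and grey points all other cells. *Alas2* has the widest gap, and *Rgs5* is the gene that is lower in the open than in the filled points.

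Outside the Hb-high cells, hemoglobin was at a low level that differed widely between libraries. In cells that were not Hb-high and held under 20 hemoglobin UMIs, 48.4% had at least 1 hemoglobin UMI in control muscle at 0 dpi (exact 95% interval 45.5% to 51.3%), 10.6% (9.40% to 11.9%) at 5 dpi, and 54.8% (53.1% to 56.5%) at 14 dpi. In hypothyroid muscle the share was 28.8% (24.9% to 32.8%) at 0 dpi, 1.30% (0.865% to 1.87%) at 5 dpi, and 13.1% (11.5% to 14.9%) at 14 dpi. Large classes of a library lay close together. In control muscle at 14 dpi the share was 56.0% in 1492 FAP-like cells, 53.0% in 808 endothelial-like cells, 55.5% in 245 myocyte-like cells, 56.0% in 91 myogenic progenitor-like cells, 52.6% in 116 monocyte/macrophage-like cells, and 52.2% in 92 T and NK-like cells. In control muscle at 5 dpi the same 6 classes had 12.7%, 9.85%, 5.26%, 15.4%, 11.7%, and 8.72%, the myocyte-like class with only 19 cells. In hypothyroid muscle at 14 dpi they had 12.4%, 15.2%, 20%, 12.5%, 15.4%, and 10.5%. Of these 3 libraries, control muscle at 14 dpi had the highest share in all 6 classes. Counting each named class in each library with at least 20 cells gave 44 groups, and in all 44 the exact interval held the share of the library. The library share includes the class itself, so a large class lies near it by construction. In control muscle at 0 dpi, 748 of the 1151 cells were FAP-like. The intervals of small groups are wide: B-like cells of hypothyroid muscle at 0 dpi had 10% of 20 cells against 28.8% in the library. T and NK-like cells, not known as a source of hemoglobin, were among these classes. Whether any class expresses hemoglobin was not tested, and no share is read here as expression by a class. RNA free in the suspension was not measured in these tables. In hypothyroid muscle at 5 dpi, 0 of 189 myogenic progenitor-like cells had a hemoglobin UMI, which allows a share of up to 1.59%, and 17 of the 28 cells with any were FAP-like.

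**Figure D3:**
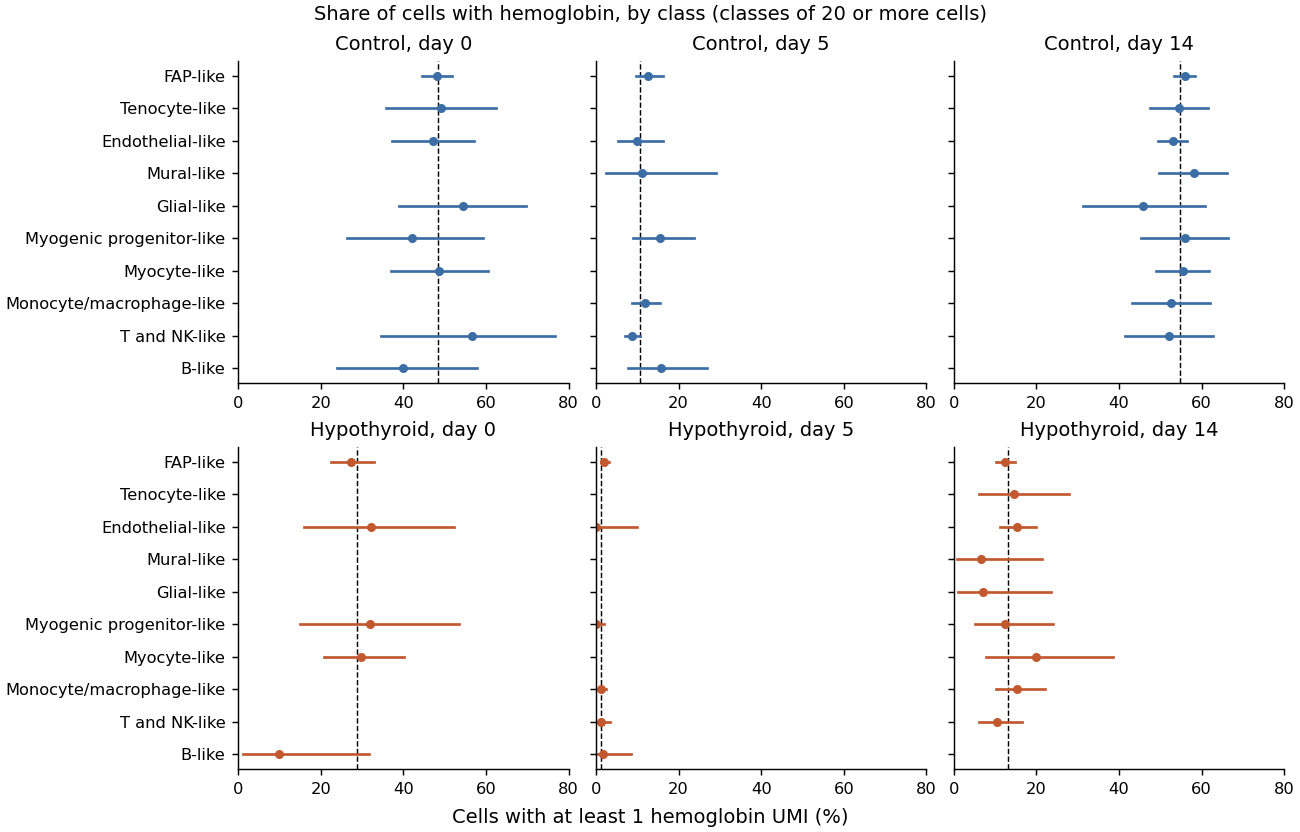
Share of cells with at least 1 hemoglobin UMI (x axis, %) by class, for classes of at least 20 cells, without Hb-high cells and cells with 20 or more hemoglobin UMIs. Points are values, bars exact binomial 95% intervals, and the dashed line the share over the library; all 44 bars cross their library's line, which sits between 1.30% and 54.8%.

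The number of these UMIs per cell changed far less with depth than total UMIs did. In control muscle at 0 dpi, hemoglobin UMIs per cell were 0.708, 0.667, 0.718, and 0.691 over 4 bins of cells from shallow to deep, while the median depth rose from 1470 to 9047 UMIs. In hypothyroid muscle at 14 dpi they were 0.160, 0.168, 0.148, and 0.143, with the depth rising from 1497.5 to 14639.5. The deepest bin over the shallowest gave a ratio of hemoglobin UMIs per cell of 0.975 (exact 95% interval 0.798 to 1.19) and 0.894 (0.618 to 1.29) in these 2 libraries. It was 0.820 (0.548 to 1.22) in hypothyroid muscle at 0 dpi and 1.5 (0.477 to 5.12) at 5 dpi. In control muscle it was 1.71 (1.22 to 2.40) at 5 dpi and 1.28 (1.15 to 1.42) at 14 dpi, so there the deepest cells held more, but mean depth differed 11.3-fold and 10.5-fold between the same bins. In CPM, the shallowest bin was therefore 6.62-fold to 11.2-fold higher than the deepest in the 6 libraries. Classes could thus differ in CPM and less so per cell, though not in every library. In control muscle at 0 dpi, endothelial-like cells (median depth 1162) were at 411 CPM and FAP-like cells (5566) at 116, with 0.827 and 0.683 UMIs per cell. In hypothyroid muscle at 14 dpi, however, the highest named class was 6.42-fold the lowest per cell and 4.91-fold in CPM.

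**Figure D4:**
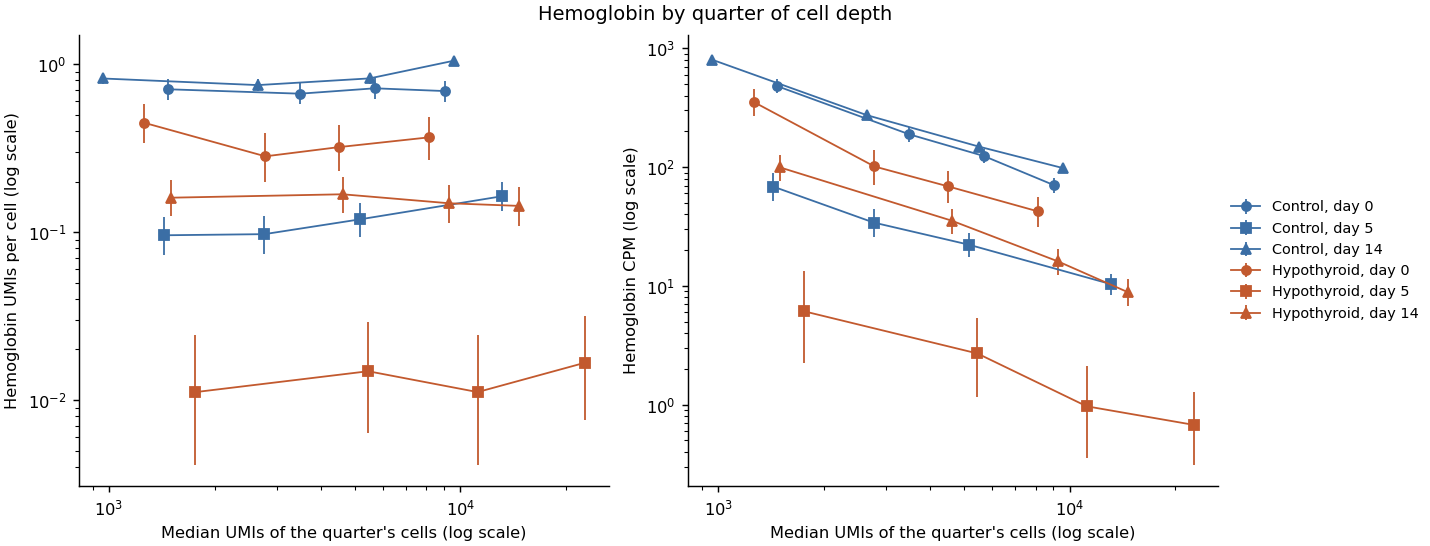
Hemoglobin in 4 equal bins of cell depth in each library, as UMIs per cell (left, log scale) and as CPM (right, log scale), against the median UMIs of the bin (x axis, log scale). Bars are exact Poisson 95% intervals; UMIs per cell stay nearly level while CPM falls from left to right in all 6 libraries.

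Over all libraries, the broad classes without Hb-high cells were at 295 CPM in endothelial/mural-like, 232 in myocyte-like, 106.5 in glial-like, 103 in monocyte/macrophage-like, 88.5 in FAP-like (tenocytes included), 45.9 in lymphoid-like, and 26.3 in myogenic progenitor-like cells. The classes differ in their mix of libraries and in depth, so this order is not read as one of expression. A monocyte/macrophage-like cell of hypothyroid muscle at 14 dpi alone held 744 hemoglobin UMIs, beside 788 UMIs of macrophage markers and 3 of *Alas2*. Without cells of 20 or more hemoglobin UMIs the monocyte/macrophage-like class was at 18.97 CPM, endothelial/mural-like at 133, and FAP-like at 53.3.

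Hypothyroid libraries held less of this low-level hemoglobin than control libraries on each day. In all cells but the Hb-high ones, the 4 genes summed to 135 CPM (exact Poisson 95% interval 126 to 145) in control and 81.7 (70.4 to 94.4) in hypothyroid muscle at 0 dpi. At 5 dpi they were at 84.7 (80.1 to 89.4) and 1.23 (0.827 to 1.77), and at 14 dpi at 263 (255 to 271) and 102 (96.5 to 107.5). The ratio of hypothyroid to control was 0.605 (0.513 to 0.711) at 0 dpi, 0.0146 (0.00973 to 0.0210) at 5 dpi, and 0.388 (0.365 to 0.413) at 14 dpi. With all columns of each file, later runs included, the ratio at 5 dpi was 0.308, with 42.8 CPM in hypothyroid muscle, and the ratio at 14 dpi was 0.655. A few cells of 20 or more hemoglobin UMIs weighed on these values: 2 cells held 78.0% of the remaining hemoglobin in control muscle at 5 dpi, 11 held 34.6% in control muscle at 14 dpi, and 2 held 80.9% in hypothyroid muscle at 14 dpi. Without them, the ratio was 0.605 at 0 dpi, 0.0659 (0.0434 to 0.0967) at 5 dpi, and 0.113 (0.0993 to 0.129) at 14 dpi. Counted per cell rather than in CPM, it was 0.509 (0.432 to 0.598), 0.113 (0.0745 to 0.166), and 0.180 (0.158 to 0.205). In the first runs, the hypothyroid library was lower in each of these ways on all 3 days, and it was deeper than the control library at 5 and 14 dpi.

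By gene, in cells that were not Hb-high, 1 of the 4 members was at least 2-fold lower in hypothyroid muscle at 0 dpi, against 3.82% of all genes. This was *Hba-a2*, at 0.491 (0.249 to 0.896), on 13 UMIs in hypothyroid muscle. *Hba-a1*, whose counts are hard to tell from those of *Hba-a2*, had 15 UMIs and a ratio of 0.575, so this single call is uncertain. The other 3 lay between 0.575 and 0.625. At 5 dpi all 4 members were at least 2-fold lower, against 19.6% of all genes, with ratios from 0.00268 for *Hba-a2*, which rests on 1 UMI, to 0.0223 for *Hbb-bt*. The counts of *Hba-a1* and *Hbb-bt* at 5 dpi were also low, at 3 and 4 UMIs. At 14 dpi all 4 were at least 2-fold lower, against 6.28% of all genes: *Hba-a1* at 0.461, *Hba-a2* at 0.432, *Hbb-bs* at 0.352, and *Hbb-bt* at 0.332. No member was at least 2-fold higher on any day, against 4.46%, 3.62%, and 4.27% of all genes at 0, 5, and 14 dpi. The difference in blood content between muscles, in lysis and washing between preparations, and in diet cannot be told apart with 1 library per condition.

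Across days the low-level hemoglobin dipped at 5 dpi in both diets. In cells under 20 hemoglobin UMIs, UMIs per cell were 0.696 (0.649 to 0.746), 0.119 (0.105 to 0.133), and 0.861 (0.829 to 0.893) in control muscle at 0, 5, and 14 dpi. In hypothyroid muscle they were 0.354 (0.305 to 0.409), 0.0135 (0.00901 to 0.0193), and 0.155 (0.136 to 0.175). From 0 to 5 dpi the level fell to 0.171 (0.149 to 0.196) of the uninjured value in control and to 0.0380 (0.0248 to 0.0564) in hypothyroid muscle. At 14 dpi it was 1.24-fold the uninjured value (1.14 to 1.34) in control muscle and 0.437 (0.361 to 0.531) of it in hypothyroid muscle. This direction rests on leaving out cells with 20 or more hemoglobin UMIs: with the 2 such cells of hypothyroid muscle at 14 dpi kept, the level there was 2.29-fold the uninjured one (1.96 to 2.68), and with the 2 of control muscle at 5 dpi kept, the fall in control muscle was to 0.774 (0.708 to 0.846). Placed in order without them, control muscle at 14 and 0 dpi came first, then hypothyroid muscle at 0 and 14 dpi, control at 5 dpi, and hypothyroid at 5 dpi. No intervals of neighbours in this order overlapped, but these intervals hold no spread between animals.

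The balance of α and β transcripts differed between libraries, in Hb-high cells as in the pooled UMIs of cells under 20 hemoglobin UMIs (low-level UMIs). In control muscle at 0 dpi, α transcripts were 17.1% (exact 95% interval 14.6% to 19.9%) of 801 low-level hemoglobin UMIs and 13.9% (11.4% to 16.8%) of the 653 in its Hb-high cell. In hypothyroid muscle at 0 dpi they were 15.1% (10.2% to 21.0%) of low-level UMIs and 18.3% (17.4% to 19.3%) in its 3 Hb-high cells, at 17.2%, 18.6%, and 19.5% cell by cell. The injured libraries were richer in α transcripts. Control muscle at 5 dpi had 45.8% (39.97% to 51.8%) of low-level UMIs and 44.6% (42.7% to 46.5%) in Hb-high cells, but 35.9% (32.9% to 38.9%) in the 2 other cells of 20 or more hemoglobin UMIs. Control muscle at 14 dpi had 39.3% (37.5% to 41.2%) of low-level UMIs and 43.97% (43.6% to 44.3%) in Hb-high cells, with intervals that did not overlap. Hypothyroid muscle at 14 dpi had 45.9% (39.6% to 52.2%) and 45.1% (42.9% to 47.3%). The hypothyroid library at 5 dpi had 13.8% of 29 UMIs, with an interval from 3.89% to 31.7%. Both uninjured libraries thus lay below 20% in low-level UMIs, and the injured libraries above 39% except the hypothyroid one at 5 dpi. Of 25 classes with at least 20 low-level hemoglobin UMIs in a library, the intervals of 24 held the share of their library, which includes the class itself. The exception was endothelial-like cells of control muscle at 0 dpi, at 27.9% (18.8% to 38.6%) against 17.1%.

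Single Hb-high cells of a library also differed. The α share ran from 36.6% to 65.3% over the 19 Hb-high cells of control muscle at 14 dpi, was 35.8% and 48.5% in the 2 of control muscle at 5 dpi, and 42.4% and 46.7% in the 2 of hypothyroid muscle at 14 dpi. *Hbb-bt* made up 0.792% to 22.3% of β UMIs over the 19 Hb-high cells of control muscle at 14 dpi (median 12.6%), and 15.6% and 27.1% in the 2 cells of control muscle at 5 dpi. It was 11.6%, 15.8%, and 20.01% in the 3 cells of hypothyroid muscle at 0 dpi, and 1.46% and 11.1% in the 2 of hypothyroid muscle at 14 dpi. The low values did not come from few counts alone: a cell of hypothyroid muscle at 14 dpi held 10 *Hbb-bt* UMIs beside 673 of *Hbb-bs*. In low-level UMIs, *Hbb-bt* was 15.8% of β UMIs in control muscle at 0 dpi, 9.62% at 5 dpi, and 12.4% at 14 dpi, and 15.2%, 16%, and 11.6% in hypothyroid muscle, with overlapping intervals. *Hba-a1* was 48.7% to 53.6% of low-level α UMIs in the 5 libraries with more than 4 such UMIs, within the limit set by the shared sequence of the pair. The *Hbb-bt* shares rest on reads telling the β copies apart, which was not tested.

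**Figure D5:**
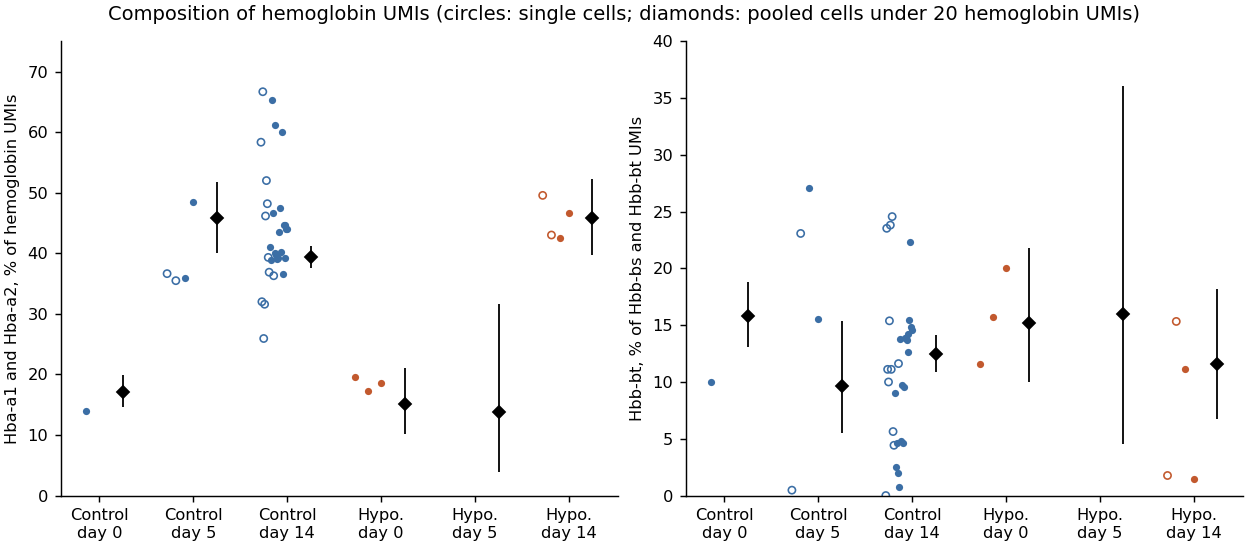
Left, α transcripts as a percent of hemoglobin UMIs; right, *Hbb-bt* as a percent of β UMIs, by library. Filled circles are Hb-high cells, open circles other cells with 20 or more hemoglobin UMIs, and diamonds the pooled UMIs of all cells under 20, with exact binomial 95% intervals; on the left, circles and diamonds are low together at 0 dpi and high together at 14 dpi.

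Fiber and fibro-adipogenic RNA counted in other classes also varied between libraries, and only partly in step with hemoglobin. The 9 fiber genes gave 12.6, 6.58, and 38.4 UMIs per cell in cells outside the myogenic classes in control muscle at 0, 5, and 14 dpi, and 35.3, 2.54, and 17.1 in hypothyroid muscle. As for hemoglobin, the highest value was in control muscle at 14 dpi and the lowest in hypothyroid muscle at 5 dpi. At 0 dpi, however, fiber RNA was higher in hypothyroid than in control muscle, while hemoglobin was lower. The 5 fibro-adipogenic genes, counted in leukocyte-like and myogenic classes, gave 54.6, 3.58, and 24.6 UMIs per cell in the control libraries and 31.5, 7.53, and 13.98 in the hypothyroid ones, with medians of 0 to 2 per cell. Their means were highest in control muscle at 0 dpi and lowest in control muscle at 5 dpi. The mix of classes in this pool differed between libraries. In control muscle, 76 of the 177 pooled cells were myocyte-like at 0 dpi, while 1021 of the 1574 were T and NK-like at 5 dpi. How much of the difference in these means comes from that mix, or from expression by the counted classes, was not tested. Over the 44 groups of class and library, the genes whose log2(CPM + 1) followed summed hemoglobin most closely were *Pvalb* (Pearson r 0.73), *Xirp2* (0.67), *mt-Nd2* (0.67), *Myh4* (0.65), *Myoz1* (0.64), *Myl1* (0.64), *mt-Nd3* (0.63), *Mylpf* (0.63), *Pgam2* (0.63), and *Tnnt3* (0.63), out of 12304 genes. Of these, 8 are genes of fibers and 2 of mitochondria. The groups share libraries and differ in depth, so these correlations only describe the tables. Among the members, *Hba-a1* and *Hbb-bs* were most alike (0.80) and *Hba-a2* and *Hbb-bt* least (0.48).

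Genes that take up hemoglobin and handle its heme and iron were followed in monocyte/macrophage-like cells. This class was named from markers of monocytes, macrophages, and dendritic cells, of which macrophages clear aged and damaged red cells. *Fth1*, the ferritin heavy chain that stores iron, was at 39179 CPM in them over all libraries and at most 7177 in any other named class. *Hmox1*, which opens the heme ring, was highest in endothelial-like cells (3541 CPM), with 2817 in monocyte/macrophage-like cells. *Slc40a1*, the iron exporter, was highest in tenocyte-like cells (40.99 CPM), with 12.2 in monocyte/macrophage-like cells. Both genes differed widely between the libraries of the monocyte/macrophage-like class. At 5 dpi, 366 control cells held *Hmox1* at 3818 CPM and 625 hypothyroid cells at 1176 (ratio 0.308, exact 95% interval 0.297 to 0.319). At 14 dpi, 116 control cells held it at 8597 CPM and 157 hypothyroid cells at 5211 (ratio 0.606, 0.584 to 0.629). *Slc40a1* was at 29.4 and 0.592 CPM at 5 dpi (3 UMIs in hypothyroid cells; ratio 0.0201, 0.00401 to 0.0621), and at 50.1 and 18.96 at 14 dpi (ratio 0.378, 0.212 to 0.674). *Fth1* differed little, with ratios of 1.01 and 0.9996. Of the 19 listed genes, 3 were at least 2-fold lower in hypothyroid cells at 5 dpi (*Hmox1*, *Slc40a1*, and *Hp*, whose product haptoglobin binds free hemoglobin, at 0.1735) and 1 at least 2-fold higher (*Trf*, which carries iron, at 2.04). At 14 dpi 1 was lower (*Slc40a1*) and 1 higher (*Hp*, with 2 and 18 UMIs and an interval from 0.847 to 31.4). Over all genes tested in these cells, 19.6% were at least 2-fold lower and 5.51% higher at 5 dpi, and 7.51% lower and 7.5% higher at 14 dpi, so the listed genes stood near the background. Different clusters held most of the class at 5 dpi: cluster 18, led by *Clec4n* and *Alox5ap*, held 224 of the control cells, and cluster 22, led by *Trem2* and *Aif1*, 541 of the hypothyroid cells. Cluster 10, led by *Siglech* and *Gm21762*, was named on 3 of 10 markers and held 37 control and 15 hypothyroid cells at 5 dpi.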

How the data were processed

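The authors aligned 10x Genomics 3′ reads with Cell Ranger in Partek Flow to mm39 (tools and build per the labels), filtered cells, and deposited log2(CPM + 1) values per gene and cell. UMIs were recovered by taking each cell's most frequent value above 0 as 1 UMI; 99.9% of 39334018 values and all values of the 4 members were then whole within 1%. The step was tested on simulated data and gave back each of 1680 cells. For hypothyroid over control at 0 dpi, with 12436 genes simulated and 200 changed, 94.5% of intervals held the true ratio. The first alphabetical run of columns in each file was used (11207 of 20269 columns), with 479 to 49806 UMIs per cell. No doublets were removed. Cells were clustered without globin genes (scanpy 1.11.5, 2000 genes, 20 components, 15 neighbours, Leiden resolution 1) and named by the list with the largest share of markers at least 2-fold over the median cluster and in at least 25% of cells, a rule written after clusters had been seen, in place of a fold over all other cells that left FAP clusters unnamed. A cluster with fewer than 3 such markers, or led by another list, stayed unnamed. Shares carry Clopper-Pearson, levels Poisson, and ratios conditional binomial intervals at 95%. A fold was counted for genes with at least 20 UMIs over both pools.

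The members, lists and tests were chosen with earlier results of these data known. Named genes were the members, the listed genes, the 10 genes most correlated with the members (at least 100 UMIs in groups of at least 20 cells), and the 15 genes with the largest lower interval end in Hb-high cells (at least 20 UMIs in at least 5 of them). The limit of 20 hemoglobin UMIs was chosen after the counts were seen. Listed genes such as *Slc4a1* and *Ahsp* are not analysed here, and 1 of the 15 genes is counted but not reported by name. Python 3.11.15, numpy 2.4.6, pandas 2.3.3, scipy 1.17.1, igraph 0.11.9 and matplotlib 3.10.9 were used.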

Additional observations from a re-analysis of the deposited data

Results flagged for a closer look

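The share of cells with a hemoglobin UMI moved in opposite directions from 0 to 14 dpi in the 2 diets. It rose by 6.42 percentage points in the control library and fell by 15.6 percentage points in the hypothyroid library, counted in cells under 20 hemoglobin UMIs. With 1 library per condition this difference was not tested.

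Columns that follow the first run in a file were not used above, but they held hemoglobin above the limit that a count of 0 allows. In the control file at 0 dpi, 12.96% of the 1152 later columns had a hemoglobin UMI, with 46.2% α transcripts, and all 1152 repeat cells of the hypothyroid library at 14 dpi. In the hypothyroid file at 0 dpi it was 10.98% of 528 later columns, with 43.5% α transcripts, and all 528 repeat cells of the control library at 5 dpi. The other later columns repeat no cell of a first run. In the control file at 5 dpi, 56.1% of 2427 later columns had a hemoglobin UMI, with 37.3% α transcripts, against 10.6% and 45.8% in the first run. In the control file at 14 dpi, the second run had 46.9% with 19% α transcripts and the third 13.9% with 45.1%, against 54.8% and 39.3% in the first. In the hypothyroid file at 5 dpi, the second run had 27.0% with 14.8% α transcripts and the third 11.5% with 45.8%, against 1.30% and 13.8% in the first. The sample that these columns belong to was not tested.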

How the results depend on the processing

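The share of Hb-high cells stayed within its interval in all 36 recomputed values. These intervals are wide because they rest on few cells, so staying within them says little. With all columns, the share went from 0 to 0.139% in hypothyroid 5 dpi and from 0.0824% to 0.268% in control 5 dpi. With Hb-high set at 25%, it was 0.0412% in control 5 dpi and 0.0606% in hypothyroid 14 dpi. The hypothyroid over control ratio stayed below 1 in all 24, 13 of which moved beyond their interval. The ratios with all columns do not count toward this direction. At 0 dpi the later columns of both files repeat cells of the other diet, and the sample of the remaining later columns was not tested. Levels moved more, by 30 of 48 library values and 41 of 70 class values (CPM below). The cause of these shifts was not tested, except that thinning and the mean over cells give shallow cells more weight by construction. With 1 library per condition, counting intervals hold no spread between animals, and low counts limit the hypothyroid library at 5 dpi. No paired analysis was possible because each group has 1 library and all carry the number 1. With Hb-high set at 5%, the levels moved to 40.3 in control 5 dpi, 201 in control 14 dpi and 76.2 in hypothyroid 14 dpi, the diet ratio to 0.0306 at 5 dpi, and the class levels to 54.2 in FAP-like and 226 in endothelial/mural-like cells. With Hb-high set at 25%, the levels moved to 137 in control 5 dpi, 392 in control 14 dpi and 161 in hypothyroid 14 dpi, the diet ratio to 0.00899 at 5 dpi, and the class levels to 137 in FAP-like and 399 in endothelial/mural-like cells. With cells thinned to 1000 UMIs, the levels moved to 178 in control 0 dpi, 63.1 in control 5 dpi, 361 in control 14 dpi, 129 in hypothyroid 0 dpi and 2.47 in hypothyroid 5 dpi, the diet ratio to 0.726 at 0 dpi, 0.0391 at 5 dpi and 0.277 at 14 dpi, and the class levels to 136 in FAP-like, 446 in endothelial/mural-like, 155 in glial-like, 63.3 in lymphoid-like, 63.7 in monocyte/macrophage-like, 352 in myocyte-like and 65.8 in progenitor-like cells. With all columns of each file, the levels moved to 88.1 in control 0 dpi, 139 in control 5 dpi, 156 in control 14 dpi, 45.4 in hypothyroid 0 dpi and 42.8 in hypothyroid 5 dpi, the diet ratio to 0.308 at 5 dpi and 0.655 at 14 dpi, and the class levels to 91.8 in FAP-like, 268 in endothelial/mural-like, 163 in glial-like, 56 in lymphoid-like, 163 in monocyte/macrophage-like, 159 in myocyte-like and 42.1 in progenitor-like cells. With the mean of each cell's CPM, the levels moved to 254 in control 0 dpi, 67.8 in control 5 dpi, 474 in control 14 dpi, 160.1 in hypothyroid 0 dpi and 2.77 in hypothyroid 5 dpi, the diet ratio to 0.0408 at 5 dpi and 0.22 at 14 dpi, and the class levels to 154 in FAP-like, 573 in endothelial/mural-like, 183 in glial-like, 74 in lymphoid-like, 60.3 in monocyte/macrophage-like, 599.9 in myocyte-like and 66 in progenitor-like cells. With the smallest value taken as 1 UMI, the levels moved to 125 in control 0 dpi, 54.7 in control 5 dpi, 253 in control 14 dpi and 147 in hypothyroid 14 dpi, the diet ratio to 0.58 at 14 dpi, and the class levels to 106 in FAP-like, 271 in endothelial/mural-like, 174 in monocyte/macrophage-like, 137 in myocyte-like and 10.4 in progenitor-like cells. With only cells of at least 1000 UMIs, the levels moved to 123 in control 0 dpi and 245 in control 14 dpi, the diet ratio to 0.414 at 14 dpi, and the class levels to 269 in endothelial/mural-like and 175 in myocyte-like cells. Without cells of 20 or more hemoglobin UMIs, an alternative chosen after seeing the data, the levels moved to 18.7 in control 5 dpi, 172 in control 14 dpi and 19.5 in hypothyroid 14 dpi, the diet ratio to 0.0659 at 5 dpi and 0.113 at 14 dpi, and the class levels to 53.3 in FAP-like, 133 in endothelial/mural-like, 19 in monocyte/macrophage-like and 191 in myocyte-like cells. With Leiden resolution 0.3, the class levels moved to 86.9 in monocyte/macrophage-like, 119.8 in myocyte-like and 41.3 in progenitor-like cells. With 30 components, the class levels moved to 114 in FAP-like and 110.5 in monocyte/macrophage-like cells.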
